A study of Mus musculus with 35 samples.

Results

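Adult haematopoietic stem cells (HSCs) were compared with adult haematopoietic progenitor cells (HPCs) by the regions of open chromatin in 1 peak list per cell type. In each list, touching or overlapping peaks on chromosomes 1 to 19 and X were merged into regions. A region counted as shared if it had 1 bp or more in common with the other adult list, and as list-specific if not. The adult HSC list held 89431 regions, of which 21034 were HSC-specific, and the adult HPC list held 90698 regions, of which 20894 were HPC-specific. The 12 lists of the series held 891747 regions in all.

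Open chromatin was mapped with ATAC-seq (adapters are put into accessible DNA by the transposase Tn5) in 35 libraries of mouse HSCs and HPCs from the fetus to the adult. Adult mice were 8 weeks old and on a B6 background, and the titles mark all 8 adult libraries as WT: 5 of HSCs and 3 of HPCs. The other 10 lists came from fetal cells (E16.5) and from postnatal days 7, 14 and 21 (P7, P14, P21), and 2 of them from P7 mice labelled Infnar_KO, for the receptor of type I interferon. P7 cells came in a first set (HPCs) and in a second set (set 2) of wild-type and knockout HSCs and HPCs. The adult cells were sorted by gates that the labels do not give.

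HSCs renew themselves and give rise to every blood lineage, while HPCs divide more and are partly committed to the lymphoid, myeloid or erythroid and megakaryocytic lineages. Open regions away from genes are often enhancers, which transcription factors of a lineage keep accessible, so a region open in one cell type can mark a programme that is active or poised there. Surface proteins such as CD150 (gene Slamf1) and CD48 (Cd48) are used to part HSCs, which carry the first and lack the second, from HPCs.

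With 1 pooled list per cell type (n = 1), no value has a spread between animals or libraries and no test between the cell types could be made. The -log10 p and the fold over background of a region are the authors' values for its strongest peak. Regions were ranked and cut by -log10 p within a list only. Where values of several lists stand side by side, they describe each list and are not on a common scale. Regions in the upper 50% of their own list by -log10 p, from 83.0 in HSCs and from 57.3 in HPCs, are named strong here. Reads per library are not given in the sources used. The HSC list had more peaks (150809 against 130156), covered more of the genome (56.3 against 48.5 Mb) and had wider regions (median 559 against 466 bp). The descriptions of 3 of the 5 adult HSC libraries name the peak list of another group, and all 3 P14 HSC libraries name that of adult HSCs, while all 3 adult HPC libraries name their own. For this reason the lists were matched to groups by the name each list carries, and a result without those 3 libraries could not be computed from a pooled list. Absence from a list means that no peak was called, and not that the chromatin was closed. In bulk cells fewer open cells and less accessible DNA per cell cannot be told apart.

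Promoters in list-specific regions, with no overlapping region called in the other adult list, are shown here as sequence. The promoters of Ackr1, a chemokine-binding receptor gene, and Clca3a1, of a family of chloride channel regulators, lay in HSC-specific regions, and those of Siglech, a lectin gene of plasmacytoid dendritic cells, and Trem1, an activating receptor gene of myeloid cells, in HPC-specific ones. The 250 bases before the start of each gene (RefSeq, GRCm38.p6) are given 5′ to 3′ on the strand of the gene, and capitals mark a match to one of the short motifs searched. Of the motifs found, TTGCNNAA (C/EBP) and TGTGGT (RUNX), both on the other strand, each occur once before Siglech. GAGGAA (PU.1) occurs once before Trem1, and GGGCGG (SP) and GAAANNGAA (IRF, on the other strand) once before Clca3a1. None was found before Ackr1.
Ackr1, chr1:173333504-173333753, minus strand: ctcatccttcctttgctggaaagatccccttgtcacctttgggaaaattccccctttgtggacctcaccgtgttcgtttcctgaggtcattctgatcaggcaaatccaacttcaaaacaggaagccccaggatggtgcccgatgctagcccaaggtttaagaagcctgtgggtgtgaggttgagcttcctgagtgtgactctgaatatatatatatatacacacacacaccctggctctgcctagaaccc
Clca3a1, chr3:144760978-144761227, minus strand: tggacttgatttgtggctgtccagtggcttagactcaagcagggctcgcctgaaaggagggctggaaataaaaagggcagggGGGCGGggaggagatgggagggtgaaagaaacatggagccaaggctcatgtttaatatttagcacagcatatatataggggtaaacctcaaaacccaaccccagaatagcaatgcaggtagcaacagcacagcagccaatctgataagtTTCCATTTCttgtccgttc
Siglech, chr7:55767934-55768183, plus strand: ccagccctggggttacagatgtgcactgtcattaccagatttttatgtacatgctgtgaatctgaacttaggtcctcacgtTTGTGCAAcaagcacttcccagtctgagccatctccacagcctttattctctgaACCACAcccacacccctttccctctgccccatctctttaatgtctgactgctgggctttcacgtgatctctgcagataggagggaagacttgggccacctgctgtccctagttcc
Trem1, chr17:48232489-48232738, plus strand: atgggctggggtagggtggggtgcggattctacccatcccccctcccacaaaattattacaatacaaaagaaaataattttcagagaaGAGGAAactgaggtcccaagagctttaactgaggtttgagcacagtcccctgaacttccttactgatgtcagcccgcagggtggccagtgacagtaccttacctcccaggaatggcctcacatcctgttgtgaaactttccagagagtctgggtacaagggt

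The Siglech promoter lay within a region on chromosome 7 (55767926 to 55768490) with a -log10 p of 212 in adult HPCs. It was called in the other 6 HPC lists, at 67.0 in the fetus, 57.8 at P7, 167 at P14, 120 at P21, and 111 in wild-type and 54.0 in knockout P7 HPCs of set 2, and in no HSC list. The Trem1 promoter region (chromosome 17, 48232469 to 48232903) reached 154 in adult HPCs and was likewise found in every HPC list and in no HSC list. The Ackr1 promoter region (chromosome 1, 173333278 to 173333946) had a -log10 p of 261 in adult HSCs, and the nearest adult HPC region lay 497 bp away. It was called in 3 of the 4 other HSC lists and in 2 of the 6 other HPC lists. In the fetus its value was 33.4 in HSCs and 85.2 in HPCs. The Clca3a1 promoter region (chromosome 3, 144760617 to 144761246) had 252 in adult HSCs, with 2 other HSC lists and 1 other HPC list calling it. The HPC-specific B3galt5 promoter (167), not printed above, held none of the motifs searched. Its region was in the other 6 HPC lists and in no HSC list. The HSC-specific Mab21l3 promoter region (175), not printed either, was called in all 4 other HSC lists and all 6 other HPC lists.

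Strong list-specific regions overlapped the 300 bases around the start (250 before, 50 after) of 48 genes in HSCs and 31 genes in HPCs, of 17274 genes with a RefSeq promoter, a table with no entry for chromosome 18. The HPC-specific promoters include those of Sh2d1b1, an adaptor gene of natural killer cells (137), Btla, an inhibitory receptor gene of lymphocytes (119), P2ry14, a receptor gene for UDP-glucose (106), Mmp8, a collagenase gene of neutrophils (85.5), Fcgr3, an IgG receptor gene (74.3), Prf1, the perforin gene (68.5), and Ccl3, a chemokine gene (67.9). The HSC-specific promoters include those of Cdkn1a, which encodes the cell cycle inhibitor p21 (120), Il4, a cytokine gene (127), Myd88, an adaptor gene of Toll-like receptors (107), and Kel, a blood group gene (100). The values are -log10 p in the adult list that held the region. These genes were chosen after their values were seen and do not stand for the whole sets. The HPC-specific promoters also include those of Mroh2a (449, the highest), Gmfg (144), Mrgpra9 (136) and Map7d2 (114). The HSC-specific ones also include Calml4 (171), Hyal1 (155) and Olfr1511 (139). A common theme of either set was not tested. Of the 31 HPC-specific promoters, 18 were called in no other HSC list and 2 in all 10 other lists. Of the 48 HSC-specific promoters, 2 were called in no other HPC list and 11 in all 10 others, Cdkn1a and Myd88 among the 11. The count of 18 asks for absence from 4 HSC lists, the 2 shortest lists of the series among them. The count for HSC-specific promoters asks for absence from 6 HPC lists, so these counts are not like for like. Of all strong specific regions, 2.65% (HPC) and 5.16% (HSC) were in all 10 other lists.

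The 2 groups of promoters also differed in their letters, as a description with no test. The number of CpG pairs in 300 bases was 5 or fewer in 26 of the 31 HPC-specific promoters (83.9%) and in 13 of the 48 HSC-specific ones (27.1%), beside 32.7% of all 17274 promoters and 4.81% (HSC) and 4.92% (HPC) of promoters in shared strong regions. In all, 10 motifs were searched on both strands of the 250 bases before the start. Beside those named above they were AGATAA for GATA factors, CCGGAA for ETS factors, which shares its last 4 letters with the PU.1 motif, TGANTCA for AP-1, CAGCTG for E-box factors and TCAAAG for TCF. GAGGAA stood before 16 of the 31 HPC-specific genes (51.6%) and 5 of the 48 HSC-specific ones (10.4%), against 22.2% of all promoters. TGTGGT stood before 13 (41.9%) and 4 (8.33%), against 12.4%. Among promoters with 5 or fewer CpG, which differ from the rest in base composition, GAGGAA was in 61.5% of the 26 HPC-specific ones, 37.1% of those in shared strong HPC regions and 24.6% of all, and TGTGGT in 42.3%, 19.7% and 17.2%. TTGCNNAA was in 6 of the HPC-specific promoters (19.4%) and in none of the 48 HSC-specific ones, against 9.21% of all, and among promoters with 5 or fewer CpG in 23.1% of HPC-specific ones, 15.8% of those in shared strong HPC regions and 14.2% of all. GGGCGG, a GC-rich motif, was in 9.68% of HPC-specific and 58.3% of HSC-specific promoters, against 42.8% of all, but among promoters with 5 or fewer CpG it was in 1 of the 26 HPC-specific (3.85%) and 2 of the 13 HSC-specific ones (15.4%), against 13.9% (HSC) and 12.7% (HPC) of those in shared strong regions and 6.26% of all. A match says only that these letters are present in the window.

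Most regions were common to both cell types, and the Jaccard index of the adult lists (regions shared over regions in either list) was 0.622. Over the whole lists, 23.5% of HSC regions (21034 of 89431; exact Clopper-Pearson 95% interval 23.2 to 23.8) and 23.0% of HPC regions (20894 of 90698; 22.8 to 23.3) were list-specific. Among strong regions the shares were 4.90% in HSCs (2190 of 44716; 4.70 to 5.10) and 6.57% in HPCs (2982 of 45398; 6.34 to 6.80). These intervals, and all below, cover counting error only. The share fell with strength. With each list cut into 10 equal bins by -log10 p, it went from 67.1% in the weakest HSC bin to 0.302% (27 of 8943 regions) in the strongest, and from 62.2% to 0.595% (54 of 9069) in HPCs. In the 4 weakest bins the HSC list had the higher share, and in the 5 strongest the HPC list had it.

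**Figure D1:**
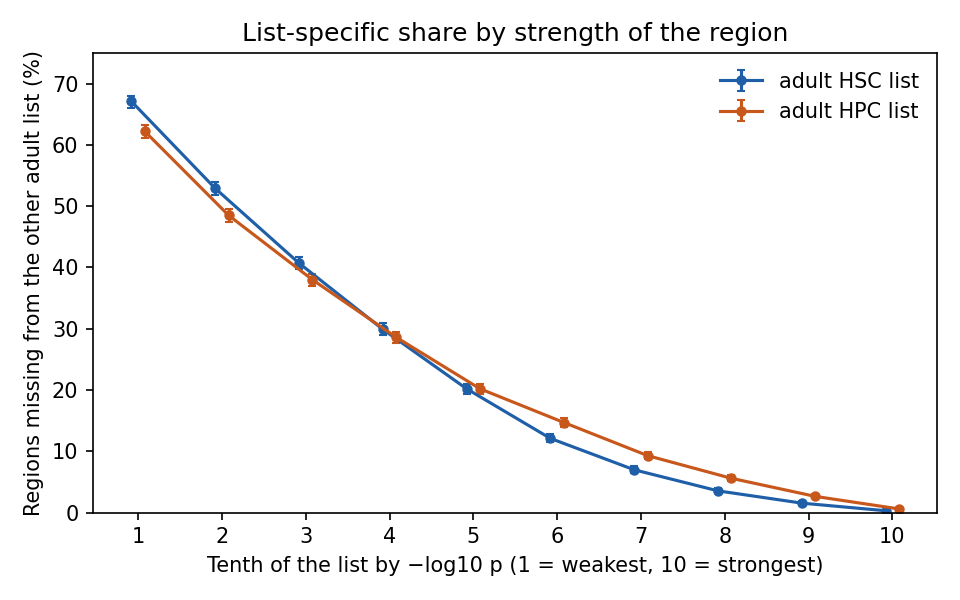
Share of regions missing from the other adult list (vertical axis, percent) in each of 10 equal bins of a list ranked by -log10 p (horizontal axis, 1 weakest, 10 strongest); blue points are adult HSCs, orange points adult HPCs, bars are exact 95% intervals. Both lines fall steadily, from 67.1% to 0.302% in HSCs and from 62.2% to 0.595% in HPCs.

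The limit of 1 bp decided few regions: 5 HSC and 11 HPC regions were shared by an overlap of 1 to 10 bp, and 4 HSC-specific and 3 HPC-specific regions lay 10 bp or less from a region of the other list, none of them strong. Strong list-specific regions stood well apart from the other list, with a median gap of 7.58 kb in HSCs and 5.94 kb in HPCs, and 6.16% and 5.84% had a region of the other list within 500 bp.

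Strong list-specific regions lay away from genes' ends more often than shared ones. A protein-coding gene ended or began within 1 kb of 5.98% of HSC-specific regions (131 of 2190; 5.03 to 7.06), against 28.1% of shared strong HSC regions (27.6 to 28.5). The HPC values were 4.02% (120 of 2982; 3.35 to 4.79) and 26.3% (25.9 to 26.8). Very long genes, of 500 kb or more, held 6.94% of HSC-specific (5.91 to 8.09) and 179 of the 2982 HPC-specific strong regions (5.18 to 6.92%), against 4.45% of the shared ones in both lists (4.26 to 4.65). List-specific regions were also weaker and narrower than shared ones among the strong: the median -log10 p was 118 against 219 in HSCs and 83.8 against 147 in HPCs, and the median width 629 against 719 bp and 482 against 602 bp. By chromosome, the HSC-specific share ran from 3.75% on chromosome 19 (2.74 to 5.01) to 7.21% on chromosome 16 (6.04 to 8.53), and the HPC-specific share from 4.37% on chromosome X (3.28 to 5.69) to 9.10% on chromosome 1 (8.14 to 10.1).

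The lists of other ages took no part in choosing the regions, and they called the strong ones in unequal shares by cell type. The descriptions of all 3 P14 HSC libraries name the adult HSC list. Whether P14 HSC reads entered that list is not known, so the P14 HSC shares may not be independent of it. Fetal HSCs had 77.0% of the strong HSC-specific regions (1686 of 2190; 75.2 to 78.7) and fetal HPCs 54.8% (52.7 to 56.9). At P14 the shares were 62.4% in HSCs (60.4 to 64.5) and 42.0% in HPCs (39.9 to 44.1), and in wild-type P7 cells of set 2 they were 32.2% (30.2 to 34.2) and 17.9% (16.4 to 19.6). Strong HPC-specific regions were split further: fetal HPCs had 72.3% (2156 of 2982; 70.7 to 73.9) and fetal HSCs 34.3% (32.6 to 36.0), P14 HPCs 92.0% (90.9 to 92.9) and P14 HSCs 21.5% (641 of 2982), and wild-type P7 HPCs of set 2 72.1% (70.5 to 73.7) and HSCs 7.58% (6.65 to 8.59). P7 and P21 HPCs of set 1 had 84.6% and 83.7% of the HPC-specific regions and 31.2% and 22.5% of the HSC-specific ones. In knockout P7 cells the HSC-specific regions were called in 27.2% (HSCs) and 17.7% (HPCs), and the HPC-specific regions in 5.63% and 54.3%.

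In each of the 4 pairs of lists of the same age and set, the strong regions of an adult cell type were called more often in younger cells of that type. With regions of any strength this held in the fetus and at P14, but at P7 the HSC lists held 3071 (wild type) and 2590 (knockout) of the 21034 HSC-specific regions and the longer HPC lists 3566 and 3286. The lists differ in length, from 42459 regions (knockout P7 HSCs) to 91043 (P14 HPCs), and shared strong regions were called in 68.5% to 98.7% of cases across the 10 lists. Length goes with age, genotype and set: the 4 lists of set 2 are the shortest and hold peaks from a -log10 p of 2, the others from 1. Their parts in these shares were not tested. P14 HPCs have the longer list of the P14 pair, and with equally many regions taken from both P14 lists the difference between P14 HSCs and P14 HPCs in HSC-specific regions was 34.2 percentage points in place of 20.4. The descriptions of all 5 P14 libraries name another group's list, as do those of both P21 libraries, and those of 1 of the 3 fetal HPC libraries and 1 of the 3 P7 HPC libraries of set 1, whereas those of fetal HSCs and of set 2 name their own.

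**Figure D2:**
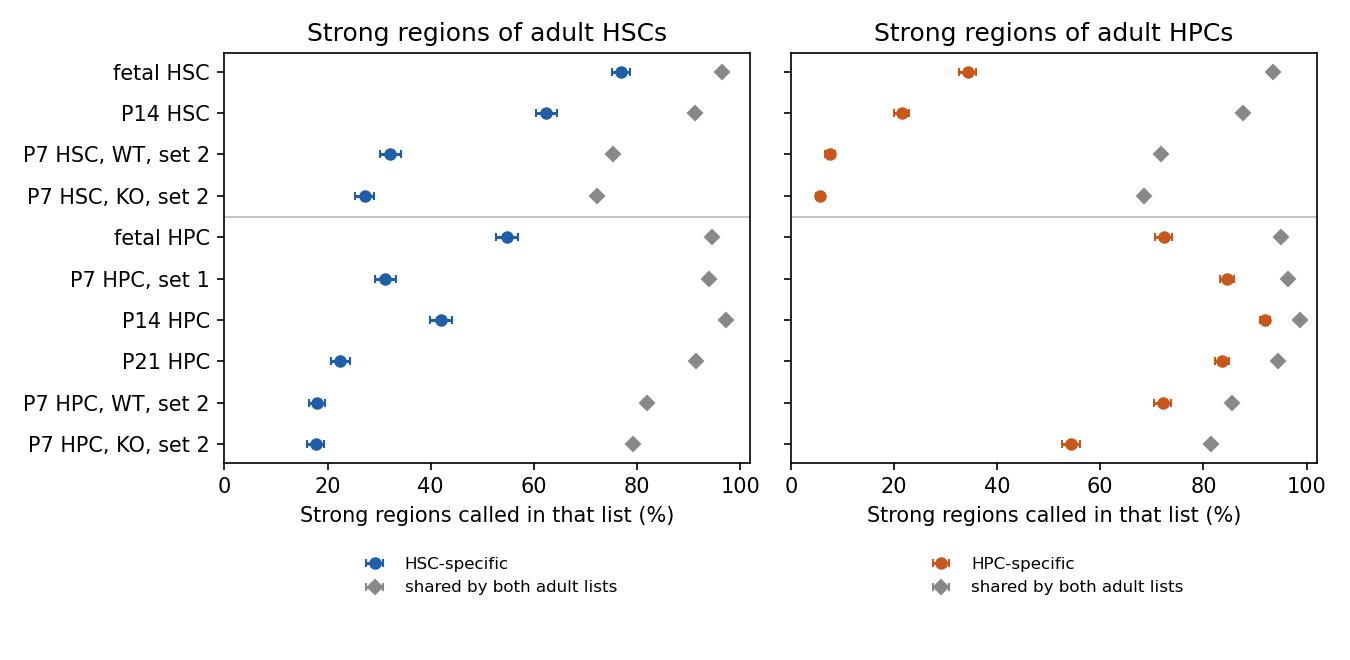
Share of strong adult regions called in each of the 10 other lists (horizontal axis, percent), for HSC-specific regions (left, blue), HPC-specific regions (right, orange) and regions shared by both adult lists (grey diamonds); bars are exact 95% intervals. HPC-specific regions sit at 54.3% to 92.0% in HPC lists and at 5.63% to 34.3% in HSC lists, while HSC-specific regions range from 27.2% to 77.0% in HSC lists and from 17.7% to 54.8% in HPC lists.

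The 2 sets of regions differed in how constant they were. Of the HPC-specific strong regions, 545 (18.3%; 16.9 to 19.7) were constant for HPCs (present in the 7 HPC lists, absent from the 5 HSC lists), whereas 34 HSC-specific ones (1.55%; 1.08 to 2.16) were constant for HSCs in the same sense. The second count asks for presence in the 2 shortest lists, those of P7 HSCs, and the first for absence from them. Shared strong regions leaned the same way over the 10 lists of other ages. In those lists 0.849% of shared HPC regions (360 of 42416) and 0.0141% of shared HSC regions (6 of 42526) had the constant pattern. Conversely, 255 HSC-specific strong regions (95% interval 10.3 to 13.1%) were in no other list, against 48 HPC-specific ones (1.61%; 1.19 to 2.13). A further 113 HSC-specific regions (5.16%) were missing from adult HPCs alone of the 12 lists, and 79 HPC-specific ones (2.65%) from adult HSCs alone. Of shared strong regions, 0.423% (HSC) and 0.193% (HPC) were in none of the 10 lists of other ages. All 10 of those lists called 61.2% and 59.5% of them. Over whole lists, the adult HPC list was most like P14 HPCs (Jaccard index 0.699), P7 HPCs of set 1 (0.657) and P21 HPCs (0.656), all above its 0.622 with adult HSCs. The adult HSC list was closest to fetal HSCs (0.643) and P14 HPCs (0.632), while its index with P14 HSCs (0.617) and with both P7 HSC lists (0.460 and 0.433) was below the 0.622 with adult HPCs.

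Among HSC-specific regions within 50 kb of a gene end, those with the highest -log10 p lay at Gnaz, Cdh11 and Cavin2. The region in Cdh11, a cadherin gene (chromosome 8, 102667132 to 102667693), had a -log10 p of 1016 and a fold of 32.0 over background, and the nearest adult HPC region was 113195 bp away. Cdh11 had 9 regions in the HSC list, 6 of them HSC-specific, and 3 in the HPC list, none specific. The Cdh11 region was called in the other HSC lists at 408 in the fetus, 207 at P14, and 99.9 in wild-type and 68.7 in knockout P7 cells, and in HPCs at 122 in the fetus, 32.8 at P7 and 34.5 at P14 but not at P21 or in set 2. At Gnaz, which encodes a G protein alpha subunit, the specific region (chromosome 10, 75003989 to 75004844; 1041) lay 530 bp from an HPC region, and the strongest regions within 10 kb of that gene, 1819 in the HSC list and 959 in the HPC list, were shared. At Cavin2, a gene of the caveolar coat, the HSC-specific region (chromosome 1, 51300108 to 51300872; 995) was one of 2 HSC regions, beside 1 in HPCs at 152.

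Mmrn1, which encodes the platelet and endothelial protein multimerin, had an HSC-specific region 8330 bp from the gene (chromosome 6, 60935399 to 60935987; 728), 273 bp from an HPC region. At Aldh1a1, which encodes an enzyme that makes retinoic acid, a region in the gene body (chromosome 19, 20613905 to 20614842; 590) was also called in fetal HSCs (16.3) and P14 HSCs (41.8) and in no HPC list. A region 25727 bp from Apob, a lipoprotein gene (chromosome 12, 8042566 to 8043415; 484), showed the same pattern, at 15.5 in the fetus and 30.6 at P14. The region at Tacr1, the substance P receptor gene (574), was in all 5 HSC lists and in 1 HPC list, that of the fetus, as were those near Ncam2, a cell adhesion gene (595), and Rint1 (431). The other named regions lay near Rnf125, Olfr459, Nadk2, Mrtfb, a coactivator gene of serum response factor, Cfap298 and Lurap1l, with -log10 p from 431 to 828. Of these 15 regions, 12 were called in fetal HPCs, and none was called in HSCs alone in all 5 lists. One intergenic region on chromosome 14 (36390860 to 36391303), with no protein-coding gene end within 50 kb, reached 689 in adult HSCs and was in no other list. It falls outside the naming rule and was chosen after its value was seen.

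HPC-specific regions with the highest -log10 p were mostly called in every HPC list. The first was in Ccdc93, a gene of endosomal sorting (chromosome 1, 121477978 to 121478969), at 1100 in adult HPCs (higher than 99.21% of the list), 262 in fetal and P7 HPCs, 473 at P14, 421 at P21, and 488 and 302 in set 2, and in no HSC list. Ccdc93 had 8 HPC regions, 3 of them specific, and 5 HSC regions, none specific. In Bst1, which encodes the surface enzyme CD157, a region (chromosome 5, 43824533 to 43825079; 559) was in all 7 HPC lists, in the 6 others from 52.7 in the fetus to 298 in wild-type P7 cells of set 2, and in no HSC list. The neighbouring gene Cd38, which encodes a related surface enzyme, had HPC-specific strong regions of 106 and 58.5. Trat1, an adaptor gene of the T cell receptor (496), Tgm2, a transglutaminase gene (443), Nt5dc3 (424) and Hs1bp3 (402) also had regions in all 7 HPC lists and no HSC list.

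Regions near Acss1, a mitochondrial acetyl-CoA synthetase gene (698), Golim4, a Golgi protein gene (584), and Cdc42ep3, an effector gene of the GTPase CDC42 (468), were in all 7 HPC lists and in 1 HSC list, that of the fetus. The Acss1 region lay 382 bp from an adult HSC region. Those near Anks3 (530), Rnf19a, a ubiquitin ligase gene (516), and Cdyl2, a chromodomain gene (473), were called in every list but that of adult HSCs. Their values in the other HSC lists ran from 19.6 (Cdyl2, knockout P7) to 156 (Rnf19a, fetus and P14). The others, Olfr308, Mroh2a and Zdhhc23, had -log10 p of 421 to 615, and Mroh2a, at 449, was missing from P21 and both set 2 HPC lists.

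**Figure D3:**
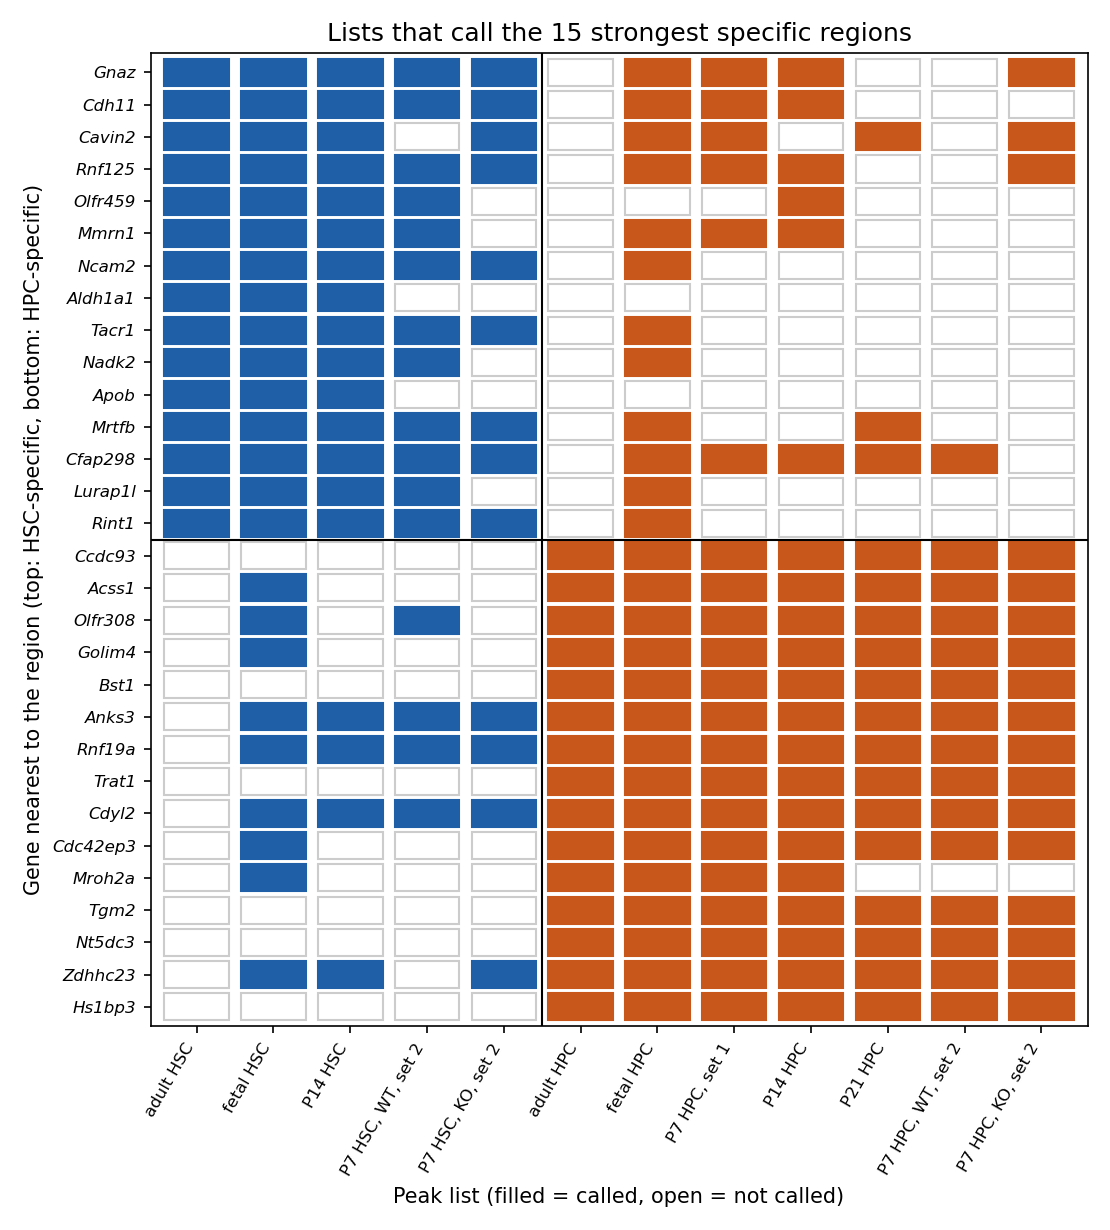
Presence of the 15 strongest HSC-specific regions (upper rows) and HPC-specific regions (lower rows), named by the nearest gene, in each of the 12 peak lists (columns); a filled square is a called region and an open one a region not called. The lower right block is filled but for 3 squares (Mroh2a), while the upper right block has 12 regions called in fetal HPCs.

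Among the 34 regions called in all 5 HSC lists and no HPC list, the strongest within 50 kb of a gene end lay in Klhdc1, a kelch repeat gene (chromosome 12, 69279898 to 69280738), at 340 in adult, 62.8 in fetal, 148 in P14, and 71.8 and 48.7 in P7 HSCs. Next came regions near Eva1a (335), Rfc5, a replication factor gene (192), Anapc1, a gene of the anaphase-promoting complex (178), Ccr3, a chemokine receptor gene (169), Ano6, a lipid scramblase gene of platelets (159), Vwa8 (157), Rsph9 (154), Ubl7 (150) and Pmel (132). Of the 545 constant HPC regions, the next ones, after the 6 already given and within the same distance of a gene, lay near B4galt4, a galactosyltransferase gene (402), Mdfic (377), Rin2, a gene of endocytosis (355), and Tmem144 (347). These 10 HSC regions ranked above 63.23% to 84.73% of their list, and the 10 HPC regions above 91.50% to 99.21% of theirs.

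Genes were next read by list. For every protein-coding gene, regions in the gene body and 10 kb on each side were counted. Of 21631 genes, 6.09% had a strong HSC-specific region and 8.06% a strong HPC-specific one (40.6% and 36.7% with regions of any strength). Counted at every gene they lay near, 3.47% of strong HSC regions and 4.88% of strong HPC regions were list-specific, and the lists below stand beside those values. The lists hold few genes, so single regions move a share. List members with 1 specific region, promoters and miRNAs were named after their values were seen.

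Among 45 HSC regulators and markers, 12 genes (26.7%) had a strong HSC-specific region and 11 (24.4%) an HPC-specific one, with 16 of 211 strong HSC regions (7.58%) and 11 of 210 strong HPC regions (5.24%) list-specific. The median member had 3 strong regions in both lists, beside 2 and 1 over all genes. With regions of any strength, 142 of 500 were HSC-specific (28.4%, beside 20.6% over all genes) and 84 of 442 HPC-specific, beside 18.9% over all genes. Rarb, which encodes a retinoic acid receptor, had 4 strong HSC-specific regions and 1 HPC-specific, and 18 against 2 of any strength. The strongest HSC-specific one at Rarb (chromosome 14, 16613541 to 16614523; 282) was in 3 other HSC lists and 3 HPC lists, while those of 124, 109 and 130 were in 1 or 2 other HSC lists and no HPC list.

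Other regulators had specific regions on both sides. Trpc6, a cation channel gene, had 2 strong HSC-specific regions and 1 HPC-specific. In Mecom, a zinc finger regulator gene of HSCs, an HSC-specific region (150) and an HPC-specific one (82.0) lay 1952 bp apart, amid 13 shared strong HSC regions. In Runx1, a regulator of blood formation, the strong HSC-specific region (105) was in all 4 other HSC lists and 2 HPC lists. The strong HPC-specific one (139) was in all 6 other HPC lists and no HSC list. Hoxb5 (86.9), Esam (104) and Itgb3 (106) had 1 strong HSC-specific region each. Of any strength, the HSC-specific and HPC-specific regions were 3 and 0 at Hoxb5, 3 and 1 at Esam, and 1 and 3 at Itgb3. The HSC-specific Itgb3 region, in the gene of the platelet integrin beta 3, was in all 5 HSC lists and no HPC list. Strong HPC-specific regions were found at Meis1 (68.5), Erg, Fli1 (58.7) and Mllt3 (59.5). Hlf, a transcription factor gene of HSCs, had 14 HSC and 15 HPC regions and no strong specific one. Gata2 (7 and 5 regions) and Procr (5 and 3) had none either, with weaker HSC-specific regions in the number of 1 and 2.

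The sort markers were read in the same way, and the labels give no gates of the adult cells to check them against. Slamf1 had 5 HSC regions, 3 of them specific, and 2 HPC regions, none specific. The strong one (chromosome 1, 171772727 to 171773813; 113 in adult HSCs), 6.19 kb inside the gene, was in the other 4 HSC lists at 29.5 in the fetus, 97.1 at P14, and 52.6 and 36.4 at P7, and in none of the 7 HPC lists. Cd48 had the reverse balance, with 1 of 2 HSC regions and 5 of 6 HPC regions specific, none of them strong. Flt3, a receptor gene of multipotent and lymphoid progenitors, had 1 strong HPC-specific region (67.5), which P14 and fetal HSCs also had (39.2 and 14.8). Kit, Ly6a and Cd34 had no strong specific region, and their strongest regions were 319, 279 and 484 in HSCs and 260, 152 and 757 in HPCs.

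**Figure D4:**
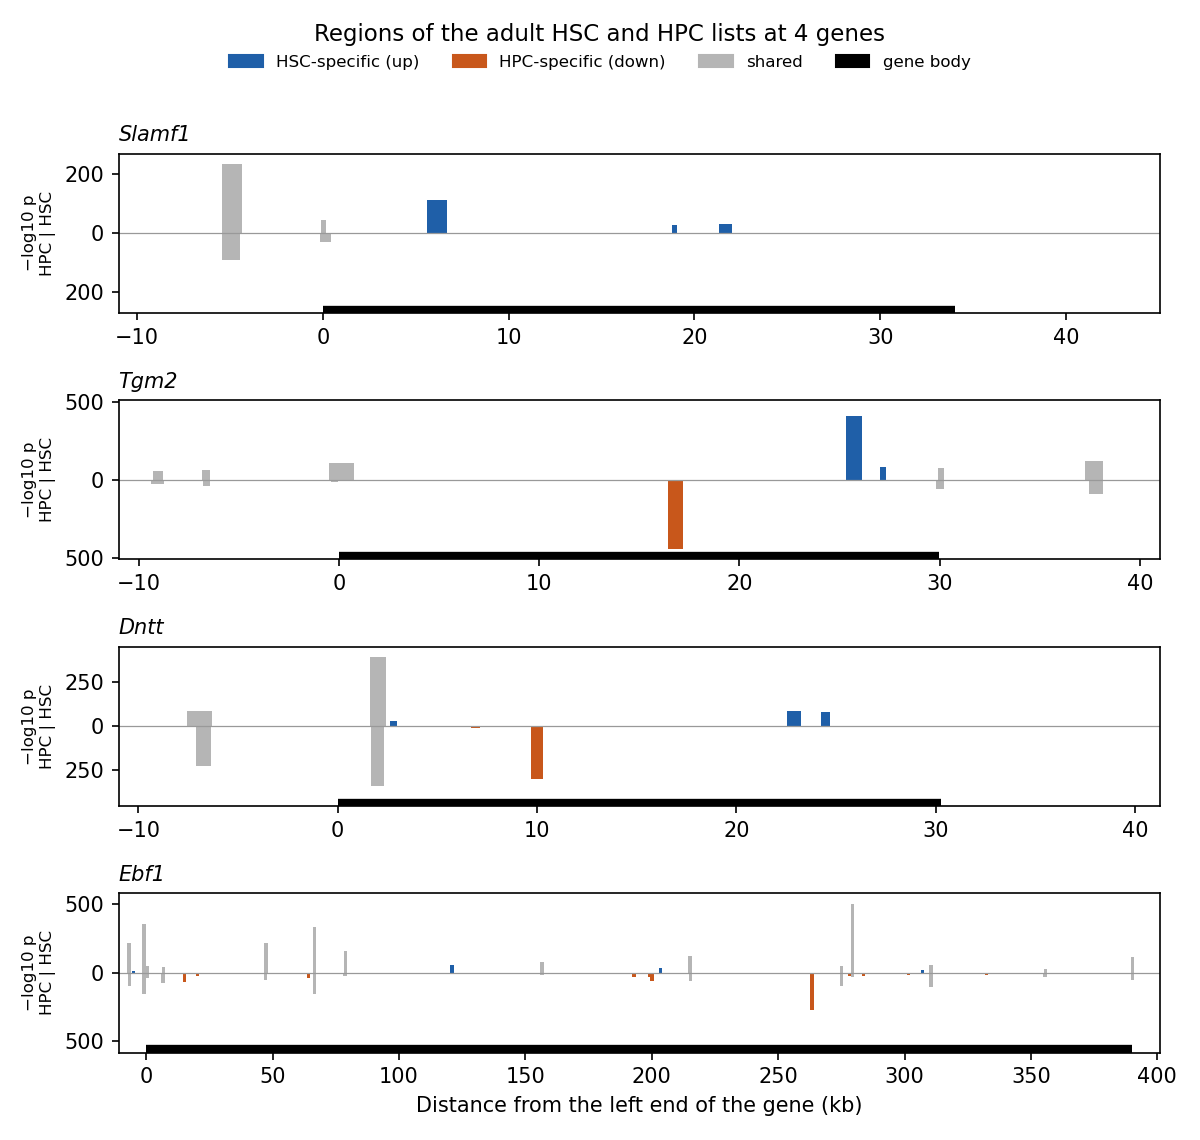
Regions of the adult HSC list (bars upward) and HPC list (bars downward) at Slamf1, Tgm2, Dntt and Ebf1, by distance from the left end of the gene (horizontal axis, kb) and -log10 p (vertical axis, own scale per gene); coloured bars are list-specific, grey bars shared, the black line is the gene body, and narrow bars are drawn wider than they are. Slamf1 has coloured bars on the HSC side alone, Tgm2 and Dntt one tall HPC-specific bar each and HSC-specific bars elsewhere in the gene, and Ebf1 a tall HPC-specific bar of 272.

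Genes of lymphoid priming had 8.82% of strong HPC regions (9, at 7 of 25 genes) and 3.74% of strong HSC regions (4 of 107, at 4 genes) specific. With regions of any strength the order turned, with 51 of 200 HPC-specific and 65 of 211 HSC-specific. Ebf1, a B cell transcription factor gene, had 3 strong HPC-specific regions and no HSC-specific one, and 11 against 4 of any strength. The strongest (chromosome 11, 44881115 to 44881751; 272) was called in each HPC list, at 53.8 in the fetus, 88.1 at P7, 151 at P14, 139 at P21, and 259 and 133 in set 2, and in no HSC list. The strongest HSC region at Ebf1 (506) was shared. In Dntt, which encodes terminal transferase, the enzyme that adds bases at antigen receptor joints, an HPC-specific region in the gene body (300) was in all 7 HPC lists and no HSC list, and an HSC-specific one 22.9 kb from the start (87.4) was in 1 other HSC list and 1 HPC list. HPC-specific regions were at Ikzf1 (79.3), Mef2c (137) and Rag2 (71.2), among others, and HSC-specific ones at Gata3 (194), Tcf4 (116) and Satb1. The Gata3 region was also in fetal and P14 HSCs (36.5 and 27.5) and in no HPC list.

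The myeloid programme had no strong HSC-specific region among 41 and 2 HPC-specific among 42 (4.76%), at Irf4 (149), a transcription factor gene, and Fcgr3. With regions of any strength 32 of 99 were HPC-specific (32.3%, beside 18.9% over all genes) and 17 of 83 HSC-specific (20.5%, beside 20.6%). Spi1, which encodes PU.1, and Cebpa had 3 strong regions in each list and none specific. The erythroid and megakaryocytic programme had 5 of 77 strong HSC regions (6.49%) and 2 of 67 HPC regions (2.99%) specific. HSC-specific ones were at Cavin2, Rab27b, a gene of platelet granule release (203), Ermap, Zfpm1 and Vwf, which encodes von Willebrand factor (95.8). The Vwf region was in all 5 HSC lists and in fetal HPCs, and an HPC-specific region of 132 at the same gene was in 4 other HPC lists and no HSC list. Selp, the P-selectin gene, had an HPC-specific region (98.8), 142 bp from an HSC region and called in fetal and P14 HSCs at 315 and 696.

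Genes of the cell cycle had 2 of 78 strong HSC regions (2.56%) and 5 of 87 HPC regions (5.75%) specific. With regions of any strength both lists had 20 of 142 (14.1%), and in the upper 25% neither had any. Cdk6, which encodes a kinase of entry into the cell cycle, had 2 HPC-specific strong regions (80.2 and 81.4) and none of HSCs. It had 12 strong HPC regions against 7 strong HSC regions, each by the limit of its own list. Of any strength, both lists had 3 specific regions at Cdk6, among 18 in HSCs and 17 in HPCs. Each of the 2 strong HPC-specific Cdk6 regions was in 5 other HPC lists, and the second in fetal HSCs as well. Ccnd3, Ccne1 and Mki67 had 1 strong HPC-specific region each, and Ccnd2 and Cdkn1a 1 strong HSC-specific region each. Immediate early genes and AP-1 genes had no strong specific region of either kind, among 71 HSC and 65 HPC regions at 23 genes.

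Innate and cytokine receptors had 8 of 93 strong HPC regions (8.60%) and 3 of 71 HSC regions (4.23%) specific, led by Il1r1, the interleukin 1 receptor gene (263), and Il1rap, its partner, with 2 (60.6 and 69.7). The Il1r1 region was in all 7 HPC lists and in P14 HSCs. HSC-specific ones were at Osmr (123), Ifngr1 (106) and Il21r (105). Adhesion and caveolae genes had 8 of 81 HPC regions (9.88%), among them Cdh5 (242) and Cdh1 (188), and 4 of 84 HSC regions (4.76%), at Cdh11, Cavin2, Itgb3 and Ncam1. G protein signalling had 3 of 99 (3.03%) and 2 of 91 (2.20%), below the values over all genes. Interferon-stimulated genes had 2 HSC-specific strong regions, at Ifit1 (126) and Ifih1 (115), among 57, and none of HPCs among 52. Genes of antigen presentation had 2 HPC-specific ones among 47, both at Ciita, the master regulator gene of MHC class II (108 and 81.6), and none of HSCs among 50.

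**Figure D5:**
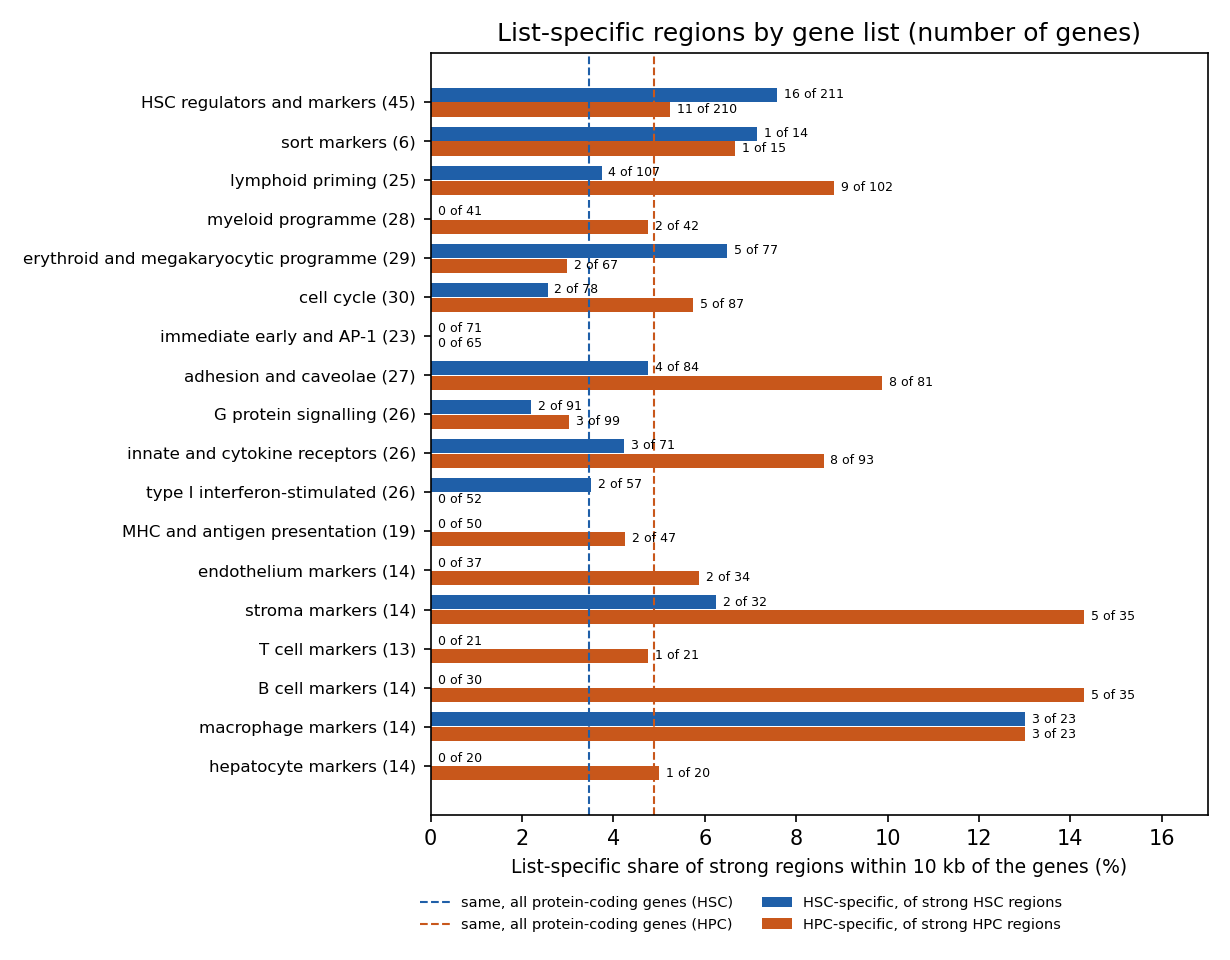
Share of strong regions that were list-specific (horizontal axis, percent) in 18 gene lists, blue for adult HSCs and orange for adult HPCs, with the counts beside the bars and dashed lines for all protein-coding genes (3.47% and 4.88%). The blue bar is longer for HSC regulators, sort markers, the erythroid and megakaryocytic list and interferon-stimulated genes. Both bars are equal for macrophage markers and for immediate early and AP-1 genes. All other lists, stroma and hepatocyte markers among them, have the longer orange bar.

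Lists of other cell types were read in the same way. B cell markers had 5 of 35 strong HPC regions specific (14.3%), at Ebf1, Blk (182) and Cd22 (82.6), and none of 30 in HSCs. Ebf1 is also in the lymphoid list. Macrophage markers had 3 of 23 in both lists (13.0%). The HPC-specific ones were 2 at Marco, a scavenger receptor gene (97.9 and 140), and 1 at Cd5l (82.6). Those of HSCs were at Cd68 (90.3), Fcgr1 (132) and Siglec1 (91.4). Stroma markers had 5 of 35 in HPCs (14.3%) and 2 of 32 in HSCs (6.25%), endothelium markers 2 of 34 (5.88%) and none of 37, T cell markers 1 of 21 (4.76%) and none of 21, and hepatocyte markers 1 of 20 and none of 20. Summed over each of these lists, the HSC list had 36 to 79 regions and the HPC list 38 to 77. Of T cell markers, Cd3e and Cd8a had no region in either list, and of hepatocyte markers Serpina1a had none, and every endothelium, stroma, B cell and macrophage marker had at least 1 region in both lists. The part of such cells in the specific regions was not tested.

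By gene, the surplus of strong HSC-specific regions was led mostly by long genes: Lsamp, a neuronal adhesion gene of 2197 kb (7 HSC-specific against 0 HPC-specific), Cntnap2 (2241 kb, 5 against 0), Arhgap26 (5 against 1), Cblb, a ubiquitin ligase gene of immune signalling (4 against 0), Nav3 (4 against 0), Rarb and Ncam2 (4 against 1), and Ryr2 (3 against 0). A short gene among them was Gem, a small GTPase gene of 10.5 kb, with 3 strong HSC-specific regions in the gene body (chromosome 4, 11705869 to 11706285, 11711925 to 11712240 and 11712912 to 11713819). The first Gem region lay 298 bp from an HPC region. The first and second were in no other list of the 12 and the last, at 239, in P14 HSCs alone (20.4). The Gem regions at the left end (199) and on both sides of the gene (585 and 973) were shared. The HPC surplus was led by Ctnnd2 and Prim2 (5 HPC-specific against 1) and by Epb41l2, Tph2, St8sia1, Pik3ap1, a signalling adaptor gene of B cells, Vps13d, Lhpp, Asic2 and Pid1 (4 against 0 each). At St8sia1, a ganglioside synthase gene, all 4 were in all 7 HPC lists.

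Both kinds of region occurred at 269 genes, 20.4% of the genes with a strong HSC-specific region and 15.4% of those with an HPC-specific one. Their median length was 228 kb, against 70.6 kb for genes with a strong HSC-specific region, 69.2 kb for those with an HPC-specific one and 17.3 kb over all protein-coding genes. Tgm2, of 29.988 kb, was a short case: its HPC-specific region (chromosome 2, 158132846 to 158133585; 443) and its strong HSC-specific region (158141725 to 158142548; 410) lay 8139 bp apart. The HSC-specific one was in 3 other HSC lists and 4 HPC lists, and the HPC-specific one in all 6 other HPC lists and no HSC list. At Ptger2, a prostaglandin receptor gene, and Panx1, a membrane channel gene, the strongest regions of each list were shared, at 560 and 1492 in HSCs and 1566 and 1734 in HPCs, and Panx1 also had a strong HPC-specific region (87.4).

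Of 1005 miRNA hairpins in the RefSeq table, 14 had a strong HSC-specific region within 10 kb and 24 a strong HPC-specific one. Over whole lists, strong HPC-specific regions were also the more numerous (2982 against 2190). Of protein-coding genes, 8.06% had a strong HPC-specific region in the gene body or within 10 kb and 6.09% an HSC-specific one. The specific share of strong regions near hairpins was not computed. Shown with the seed (bases 2 to 8) in capitals are those known in blood or lying in one cluster: miR-223, a regulator of neutrophils, miR-10b, which lies among the Hox genes, and the pair miR-200c and miR-141 had HPC-specific regions, and miR-128 an HSC-specific one. The seeds of these mature forms all differ.
miR-223-3p, chrX:96242884-96242905, plus strand: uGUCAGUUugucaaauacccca
miR-10b-5p, chr2:74726074-74726096, plus strand: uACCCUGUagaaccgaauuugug
miR-200c-3p, chr6:124718324-124718346, minus strand: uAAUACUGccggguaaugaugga
miR-141-3p, chr6:124717917-124717938, minus strand: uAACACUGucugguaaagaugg
miR-128-3p, chr9:112118644-112118664, minus strand: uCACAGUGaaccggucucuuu

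The HPC-specific region near Mir223 (chromosome X, 96238366 to 96238612; 86.0) lay 4204 bp upstream of the hairpin, in 5 of the 6 other HPC lists and in no HSC list, while a second region there was shared, at 731 in HSCs and 381 in HPCs. The region near Mir10b (chromosome 2; 88.6) lay 1497 bp upstream and was in all 7 HPC lists and in 2 other HSC lists. One region (59.4), 2.49 kb upstream of Mir200c and 2.90 kb upstream of Mir141, was in 5 other HPC lists and in no HSC list. The HSC-specific region at Mir128-2 (chromosome 9, 112118024 to 112119486; 117) covered the hairpin and was in 2 other HSC lists and 3 HPC lists. Within 10 kb, Mir128-2 also had a weak HPC-specific region (10.6), and Mir10b a weak HSC-specific one. Regions within 10 kb of Mir126a, Mir125a and Mir17, miRNAs of stem cells and growth, were all shared.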

How the data were processed

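Open chromatin was mapped in 5 libraries of adult HSCs and 3 of adult HPCs, and the authors give 1 pooled peak list under the name of each group. Which libraries were pooled into the adult HSC list is not known. Per the submitters' processing notes, Bowtie2 and MACS2 were used on mm10 (GRCm38). The sources used here give no versions, settings, read depth or way of pooling. Each deposited list gives, per peak, the authors' score (413 to 1000 in both adult lists), a fold (ratio) of signal over background, and a -log10 p and -log10 q. The score was not used further. Lists were matched to groups by the name each carries.

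With Python 3.11.15, numpy 2.4.6, pandas 2.3.3 and scipy 1.17.1, touching or overlapping peaks were merged, and a region took the values of its peak with the highest -log10 p. Coordinates are 1-based, on mm10. Shares have exact Clopper-Pearson 95% intervals. They are intervals on counts of regions in 1 pooled list per group, without a spread between libraries, so they cover counting error only. Gene ends came from the RefSeq gene table of GRCm38.p6 (21631 protein-coding genes), which gives no exons, and starts from its promoter table (17274 genes). Exons, introns and untranslated regions were not analysed here. Of 396 gene list entries, 393 matched by symbol; Mx1, Mx2 and Trac did not. The merging and overlap steps were tested on simulated data.

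The rule for named genes took, for each cell type, the nearest genes (within 50 kb) of the 15 strongest specific and 10 strongest constant regions, the genes with the 10 largest surpluses, up to 3 members per list with a difference of at least 2, and a set of 21 regulators and markers. A few genes that the rule takes are not reported here. Other genes, promoters, miRNAs and list members were chosen after their values were seen. The members and lists were chosen with earlier results of these data known. The motif search in promoters was added after the data were seen. A motif search in regions had been planned and was not run, since it needed a genome sequence, which was not used here. Alternatives were the overlap, the definition of strong, the q limit, equal list lengths and the gene windows.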

Additional observations from a re-analysis of the deposited data

How the results depend on the processing

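The counts of specific regions stayed within 1.5 times of the values given with an overlap of 50%, with regions up to 500 bp apart shared, with a -log10 q of at least 5 and with lists of equal length. With strong set at the upper 25% the counts were 296 (HSC) and 514 (HPC). The Jaccard index was 0.652 with regions up to 500 bp apart shared. The gene-end share of specific regions was 16.4% (HSC) and 14.5% (HPC) at 5 kb, 8.48% and 4.82% over all regions, and 3.31% (HPC) in the upper 25%. The excess of HSC-specific regions in HSCs over HPCs was 5.37 percentage points at P14 and 15.5 in the fetus over all regions, 40.2 and 18.9 in the upper 25%, and 34.2 at P14 with equal list lengths. The excess of HPC-specific regions in HPCs was 36.1 and 13.1 over all regions, 78.2 and 53.3 in the upper 25%, and 65.4 at P14 with equal list lengths. The difference of HSC-specific minus HPC-specific regions changed sign over all regions for lymphoid priming (14, from -5), G protein signalling (5, from -1), antigen presentation (7, from -2) and stroma markers (3, from -3), and in the upper 25% for G protein signalling (2). The cause was not tested. The shares of GAGGAA and TGTGGT in specific promoters with 5 or fewer CpG, an alternative chosen after seeing the data, lay within the intervals of the shares over all, while that of GGGCGG in HSC-specific promoters was 15.4% in place of 58.3%.

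No paired analysis was possible because the libraries were pooled into 1 list per group, and for the same reason leaving out a library was not run. The planned motif shares in regions were not run. Read depth is not given, so regions of low -log10 p limit what can be called absent.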
